A study of Mus musculus with 24 samples.

Results

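Interferon response genes are a set of 36 mouse genes that encode the factors, sensors and antiviral effectors of the interferon response. They were chosen by name, as the array probes that the scanner files assign to those genes, from 34840 gene names on the array. All 36 had a probe (49 probes in all, with 12 genes having several), and each gene was represented by the probe with the highest mean signal over the 24 arrays. RNA of sorted mouse lymphoid cells had been amplified by PCR from small cell numbers and measured on 24 single-colour Cy3 arrays, 1 per sample, in a study of the niches in which blood progenitors develop. The groups were DP, the CD4 and CD8 double-positive thymocytes, of a transgenic thymus lacking Foxn1 (tg DP, n = 4), and 4 thymocyte stages of a Foxn1-heterozygous thymus, which the titles call wt. These were DN3, the double-negative stage before DP (n = 3), DP (n = 3), and the mature stages that keep CD4 alone (SP4, n = 3) or CD8 alone (SP8, n = 3). The B cell groups were IgM-negative B cells of the Foxn1-deficient transgenic thymus (tg B, n = 2), IgM-positive B cells of wild-type fetal liver (n = 3) and IgM-negative B cells of wild-type fetal liver (n = 3). Foxn1 is a transcription factor of the thymic epithelium, the stroma in which T cells develop. For SP4 the titles were followed, since their cell type label lists SP8 as well. The labels name neither the transgenes nor the age of the animals. Foxn1 genotype and transgene cannot be told apart in tg DP against wt DP, and tissue, age, genotype and transgene cannot be told apart in tg B against fetal liver B cells.

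Interferons are secreted alarm proteins. Type I interferons bind a receptor made of Ifnar1 and Ifnar2, whose kinases Tyk2 and Jak1 start a cascade that brings Stat2 and Irf9 together in a complex that binds the interferon-stimulated response element (ISRE). Interferon gamma has a receptor of its own, and its targets often carry the gamma-activated site (GAS). Many of the target genes encode proteins that sense or block viral RNA, and thymus and bone marrow can show some of this activity without infection, called tonic signalling.

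Promoter sequence shows what these genes share apart from the array. RefSeq promoters, from 250 bases before to 50 bases after the annotated start in build GRCm38.p6, were matched by symbol for 27 of the 36 genes (not for Dhx58, Iigp1, Mx1, Mx2, Oas1b, Oas2, Parp14, Usp18 and Zbp1). The ISRE letters, GAAA and GAAA with any 2 bases between them, on either strand, occurred in 14 of the 27 (51.9%), against 3.99% of the 27025 genes with a promoter in that table. The 14 were Bst2, Ddx58, Gbp2, Gbp3, Ifih1, Ifit1, Ifit3, Igtp, Irgm1, Isg15, Oas1a, Oas3, Rsad2 and Stat2, and in some of them several matches overlapped. The GAS letters TTCNNNGAA occurred in 7 of the 27 (25.9%), against 9.55% of all genes: Bst2, Ifi35, Ifit2, Igtp, Irf1, Isg20 and Oas1a. A match describes letters, and does not show that a factor binds there. The following windows, 5′ to 3′ on the strand of the gene, show the match in capitals for genes of different roles (TTTC repeated is the same element read from the other strand).
Isg15, chr4:156200871-156200900, minus strand: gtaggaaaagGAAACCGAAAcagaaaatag
Ifit1, chr19:34640775-34640804, plus strand: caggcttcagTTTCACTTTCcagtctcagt
Ifit3, chr19:34583363-34583392, plus strand: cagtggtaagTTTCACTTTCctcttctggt
Oas3, chr5:120777715-120777744, minus strand: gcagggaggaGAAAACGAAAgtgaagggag
Gbp2, chr3:142620594-142620623, plus strand: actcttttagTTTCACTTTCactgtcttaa
Igtp, chr11:58199512-58199541, plus strand: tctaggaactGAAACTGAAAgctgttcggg
Irgm1, chr11:48871425-48871454, minus strand: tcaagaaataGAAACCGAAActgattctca
Stat2, chr10:128270266-128270295, plus strand: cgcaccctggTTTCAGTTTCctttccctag
Irf1 (GAS), chr11:53769914-53769942, plus strand: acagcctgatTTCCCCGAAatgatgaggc
Ifit1 and Ifit3, both on chromosome 19, carried the same 10 letters, as did Gbp2 on chromosome 3.

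Signals are log2 processed intensities relative to the 75th percentile of their array, with SD over arrays. Differences of group means are on this log2 scale, each with its SE from limma fitted to all 24 arrays. A gene was called at a Benjamini-Hochberg adjusted p under 0.05 over the 33591 genes that passed the filter on dim probes. The scanner called 80.5% of spots well above background on tg B 23, with a median processed signal of 125. The other 23 arrays had 87.4% to 96.6% of spots above background and medians of 208 to 314. Titles 3 and 3A of wt DP and 6, 6A and 6B of tg DP share a number and may be repeats of 1 sample, and the labels do not say whether replicates are different animals. The p-values therefore reflect only how much these samples vary, which may be technical. Marker lists separated the lineages only in part. The mean of the T cell markers lay between -0.92 and 0.48 on thymocyte arrays and between -1.64 and -0.83 on B cell arrays, and that of the B cell markers between -1.69 and -0.89 on thymocyte arrays and between -1.62 and -0.24 on B cell arrays. Of the marker genes, Tcf7 was called between thymocytes and fetal liver B cells (4.28 ± 0.64 higher in thymocytes, adjusted p = 0.0184). Of the 8 T cell markers tested, 6 were higher in thymocytes and 2 lower. Among the lower was Cd3e, at the other end of that list, with a difference of -0.26 ± 0.08 (limma adjusted p = 0.164). Markers of plasmacytoid dendritic cells, which secrete much type I interferon, had means of -0.39 to 0.38 on thymocyte arrays and -0.29 to 0.57 on B cell arrays.

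No interferon response gene passed the test of a difference between the 8 groups. In limma's F test over the groups, 0 of the 35 genes that passed the filter were called, against 0.188% of all genes, and the smallest adjusted p among them was 0.171, for Iigp1. Mx1, an antiviral GTPase, was the gene left out by the filter: its probe was well above background on 2 of 24 arrays (1 fetal liver IgM-negative and 1 tg DP), and no group had it above background on every array. Of the 36 probes, 26 were well above background on all 24 arrays and 9 on 14 to 23. In none of the 8 comparisons was a member called, and the paragraphs below give the values behind that. In bulk samples, fewer cells of a type and less RNA per cell cannot be told apart.

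**Figure D1:**
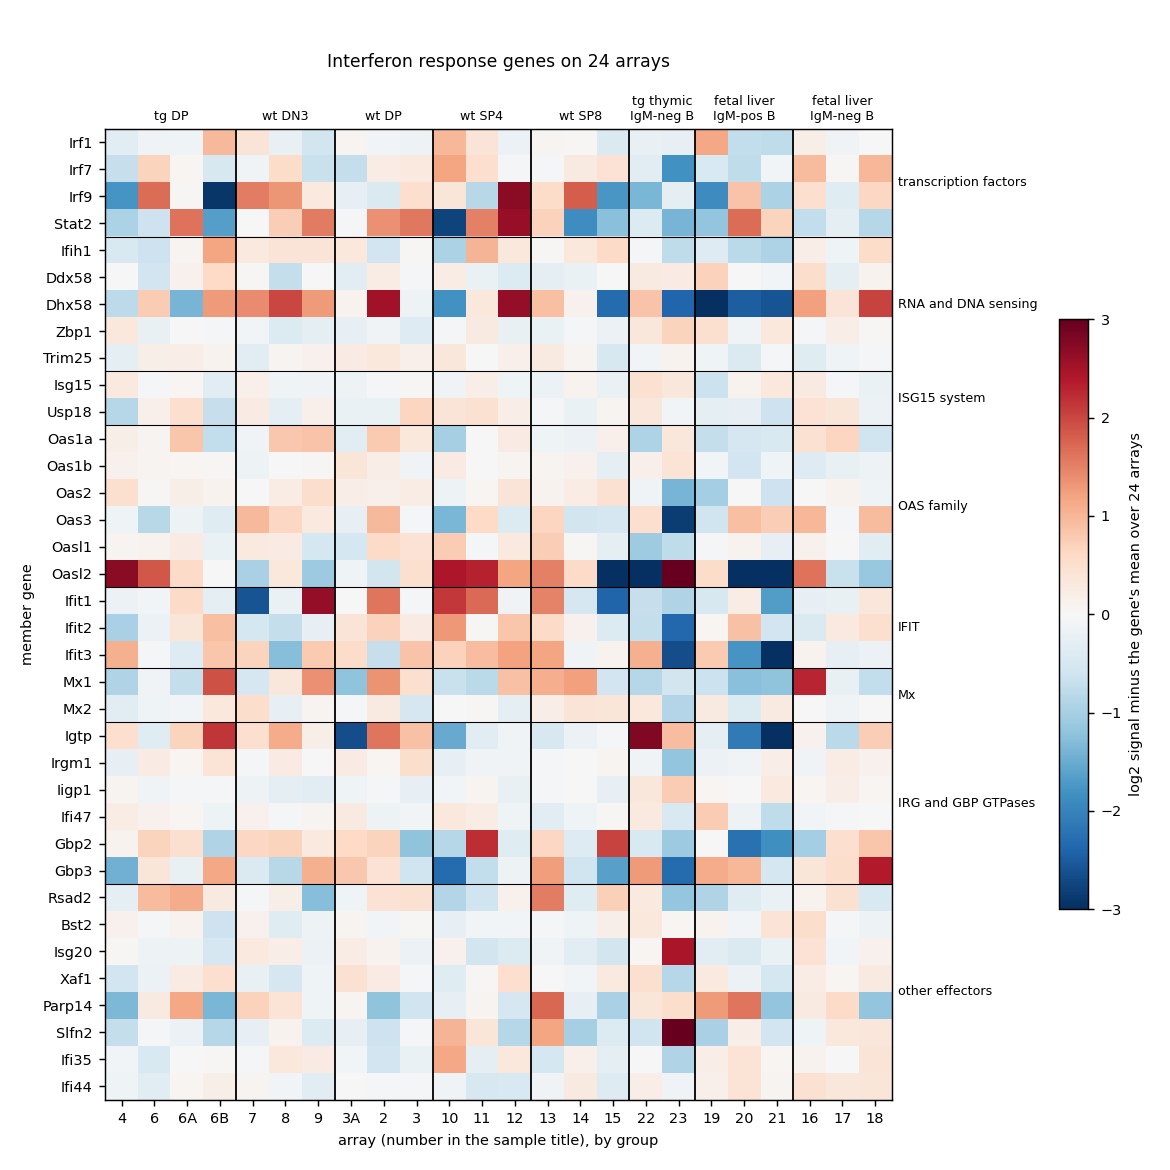
Each column is an array and each row an interferon response gene, grouped by role; colour is the log2 signal minus that gene's mean over the 24 arrays, cut at -3 and 3. Slfn2 and Isg20 stand out on the single array tg B 23, with signals of 2.81 and 2.88. Oasl2 also had its highest signal there, 0.78, with -7.67 on tg B 22.

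The transcription factors of the response were close to the array's 75th percentile for Irf1 and far below it for the partners of the ISRE complex. Irf1, which is induced by interferon gamma, had group means between 0.36 and 0.99. Irf9, the DNA-binding part of the complex, spanned group means of -4.56 to -2.69 and was well above background on 20 of 24 arrays. Stat2, its partner, spanned -5.46 to -3.59 and was well above background on 16. Irf7, the amplifier of type I interferon production, was measured on all 24 arrays. It averaged -1.23 ± 0.61 in tg DP (n = 4), -1.18 ± 0.61 in DN3, -1.18 ± 0.56 in wt DP, -0.57 ± 0.61 in SP4 and -0.89 ± 0.23 in SP8 (n = 3 each). In B cells it averaged -2.18 ± 1.06 in tg B (n = 2), -1.55 ± 0.34 in fetal liver IgM-positive and -0.46 ± 0.53 in IgM-negative cells (n = 3 each). The ranges of the 5 thymocyte groups overlapped, and the lowest array of all was tg B 23.

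On the probes used, sensors of viral nucleic acid differed in how stable their signal was. Ddx58, which encodes the RNA sensor RIG-I, had group means within -0.95 to -0.47. Ifih1, which encodes the sensor MDA5, spanned -2.04 to -0.97. Dhx58, which encodes LGP2, a regulator of both, varied most on these probes, from -0.57 on SP4 12 to -7.14 on IgM-positive 19. Its probe was dim (mean -3.22, SD 1.81) and well above background on 20 of 24 arrays. The second probes of Ifih1 (mean -3.79, SD 2.15) and Ddx58 (mean -5.17, SD 1.83), also dim, varied slightly more than that. Zbp1, a sensor of left-handed nucleic acid, and Trim25, a ubiquitin ligase that activates RIG-I, had group means of 2.54 to 3.30 and 8.56 to 9.01.

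Effector genes were mostly measurable. Isg15, the ubiquitin-like modifier, had group means of 0.74 to 1.24 and Usp18, the protease that removes it, -2.74 to -2.01. Among the oligoadenylate synthetases, which make the activator of an RNA-degrading enzyme, Oas2 spanned -0.25 to 0.76 and Oas1a -1.40 to -0.32. Oasl2, a relative with a ubiquitin-like domain, ranged from -8.02 on IgM-positive 21 to 0.78 on tg B 23, both in B cells. Of the IFIT proteins, which bind viral RNA, Ifit1 was dim (well above background on 17 of 24 arrays and on neither tg B array), while Ifit2 and Ifit3 were measured on all. The immunity-related GTPases Irgm1 and Ifi47 had group means of 0.81 to 1.72 and 0.86 to 1.14. The guanylate-binding proteins Gbp2 and Gbp3, which attack the vacuoles of intracellular pathogens, spanned -5.09 to -2.98 and -6.09 to -3.94. Bst2, the tether that holds virions at the cell surface, varied little, with group means of 0.86 to 1.18.

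Different probes of the same gene often disagreed. For the 12 genes with several probes, the brightest probe exceeded another by 0.33 (Irf1) to 9.25 (Trim25) on the log2 scale. Over the 24 arrays, 2 of 13 such probe pairs had a Pearson r over 0.5 (median 0.08, range -0.26 to 0.85), as a description of arrays from 8 groups. The probes of Trim25 and Oas1b show a feature of their sequence. The probe that represents Trim25 averaged 8.77 and its other probe -0.48. In the following probe sequences, capitals mark bases in a stretch of 16 or more that also occurs in the RefSeq promoter of another gene.
Trim25, brightest probe, chr11:88874956-88881181 (mm9), plus strand: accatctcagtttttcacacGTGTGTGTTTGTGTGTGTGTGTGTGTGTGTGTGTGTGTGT
Trim25, other probe, chr11:88881521-88881580 (mm9), plus strand: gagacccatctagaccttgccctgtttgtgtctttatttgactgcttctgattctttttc
Oas1b, brightest probe, chr5:121274109-121274168 (mm9), plus strand: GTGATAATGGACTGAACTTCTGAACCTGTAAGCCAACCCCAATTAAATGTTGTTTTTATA
The brightest Trim25 probe ends in a run of 30 alternating G and T bases, shares a 16-base stretch with the promoters of 162 other genes and with probes of 118 other genes, and is placed by the array annotation over 6226 bases of chromosome 11. All 60 bases of the Oas1b probe lie in such stretches, shared with 78 promoters. Another Oas1b probe, at chr5:121274126-121274185 (mm9), covers part of the same bases and shares stretches with 58 promoters. Its r with the brightest Oas1b probe was the 0.85 given above. The Iigp1 probe shared such a stretch with 9 promoters, and the other member probes used here with 0 to 2. Among all 55681 probes, the 858 that shared a stretch with 10 or more promoters had a median signal of 4.86, the 15358 with 1 to 9 a median of -1.15 and the 39465 with none a median of -1.90. Of the genes, 2 of 36 members (5.56%) and 2.23% of all were represented by a probe of the first kind. Signals of different probes do not measure relative RNA amounts, and the part of repeated sequence in these signals was not tested. The exon or UTR in which each probe lies was not analysed here.

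**Figure D2:**
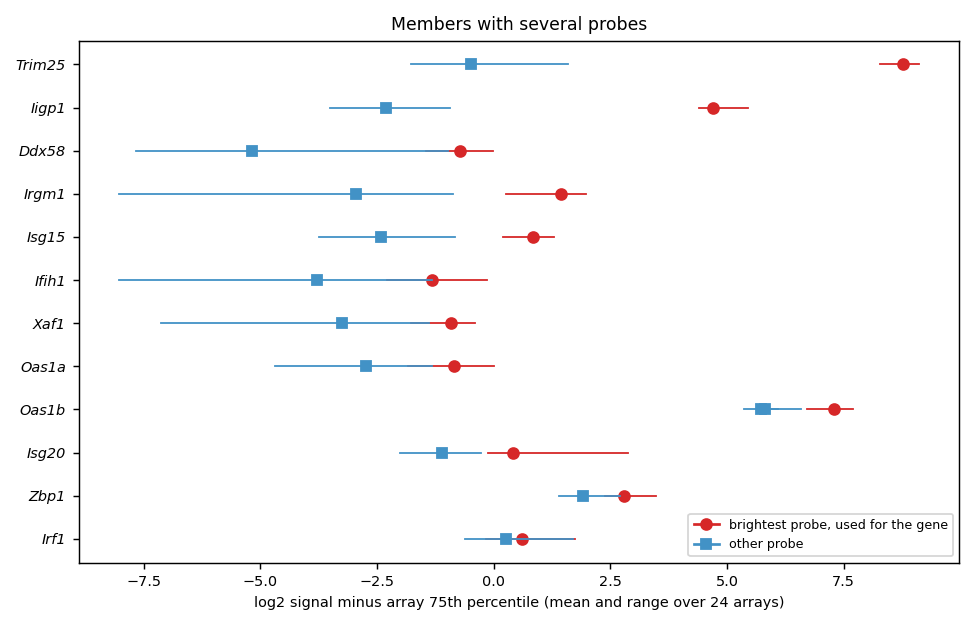
Signals of the 12 interferon response genes with several probes, as the mean (marker) and range (line) over 24 arrays. The Trim25 probes were 9.25 apart on the log2 scale and the Irf1 probes 0.33.

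Correlation between members from array to array was close to that between other genes. The mean Pearson r over their 595 pairs was 0.03 over the 24 arrays, and it was 0.03 over all pairs of genes tested. After the group means were subtracted both were 0.02. These correlations describe arrays that share groups and slides. The closest pair was Iigp1 and Zbp1 (r = 0.88, and 0.82 without tg DP 4, tg B 23 and IgM-positive 21). Isg20, an exonuclease, and Slfn2, a regulator of T cell quiescence, came next with r = 0.81, which was 0.25 without those 3 arrays. Oas1b and Trim25 had r = 0.75, and 0.85 without them. Both pairs are correlations between the brightest probes. With the other probe of its gene, the probe used had r = -0.26 for Iigp1, -0.15 for Zbp1 and 0.07 for Trim25. For Oas1b it had r = 0.46 and 0.85 with the other probes, the latter with the probe that covers part of the same bases. The Oas1b and Trim25 probes are those described above as sharing stretches with many promoters. The Iigp1 and Zbp1 probes shared stretches with 9 and 2 promoters. The lowest r of all was -0.75, between Oas2 and Iigp1. Of the 24 arrays, tg B 23 had both the lowest Oas2 signal (-0.89) and the highest Iigp1 signal (5.46).

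**Figure D3:**
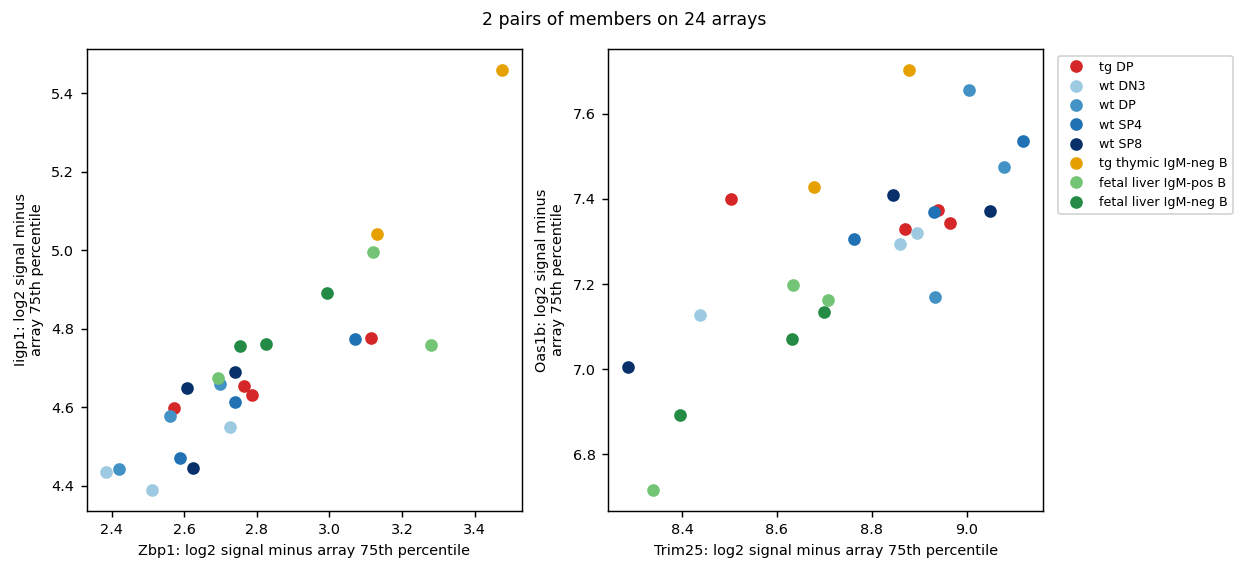
Signals of Iigp1 against Zbp1 and of Oas1b against Trim25 on the 24 arrays, both axes as log2 signal minus the array's 75th percentile, coloured by group. Each gene is shown by its brightest probe only. The points of both pairs run upward (r = 0.88 and 0.75), with tg B 23 the highest array for Iigp1, Zbp1 and Oas1b.

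The niche of DP thymocytes was compared first, tg DP against wt DP. The interferon response genes were centred as all genes were: 16 of 35 were higher in tg DP and 19 lower, with a median difference of -0.05 against -0.06 over all genes (18 higher and 17 lower with each array scaled to its median). None was called (0% of all genes were), and by limma's unadjusted p under 0.05 it was 0 of 35 against 3.28% of all genes. Every member's groups overlapped; among all genes 2.63% did not overlap upward and 4.24% downward. Zbp1 lay at 3.11, 2.57, 2.79 and 2.77 on tg DP 4, 6, 6A and 6B, against 2.56, 2.70 and 2.42 on wt DP 3A, 2 and 3. The highest array was tg DP 4, wt DP 2 lay among the tg arrays, and the difference was 0.25 ± 0.17. Stat2 differed by -1.37 ± 1.05, but 2 of the 4 tg DP arrays were not well above background. Usp18 differed by -0.31 ± 0.30. Igtp, an immunity-related GTPase, differed by 0.79 ± 0.87 and by -0.51 when wt DP 3A, at -6.76, was left out. The adjusted p was 1.0 for all 4. On slide 2, which held 3 arrays of each group, the members' median was -0.03.

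Of the upstream genes in this comparison, the ligand Ifnb1 was the nearest to a change, with an unadjusted p of 0.00256. It averaged -2.14 ± 0.28 in tg DP (n = 4) and -0.88 ± 0.48 in wt DP (n = 3), a difference of -1.26 ± 0.36 (adjusted p = 1.0). The same gene differed by -1.37 ± 0.39 in IgM-positive against IgM-negative B cells (adjusted p = 0.459) and by -1.15 ± 0.39 in SP4 against DP (adjusted p = 0.589), the last sharing the wt DP arrays with the comparison above.

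**Figure D4:**
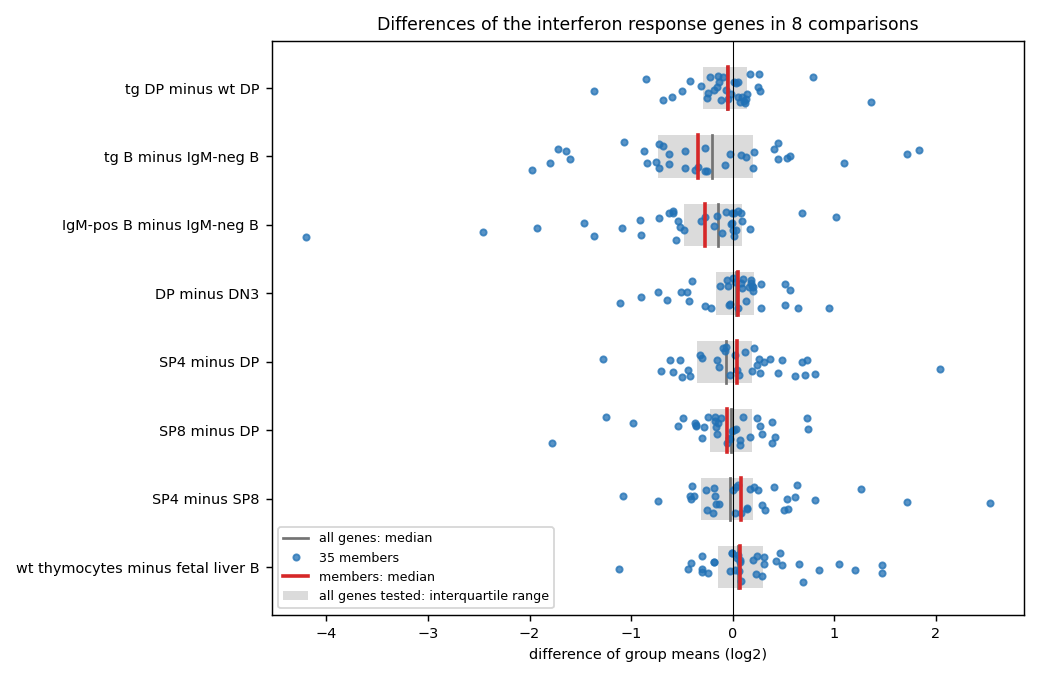
Differences of group means (log2) of the 35 interferon response genes that passed the filter (points) with their median, in 8 comparisons, beside the median and interquartile range of all 33591 genes (grey). The members' medians ranged from -0.34 in tg B against IgM-negative B cells to 0.08 in SP4 against SP8.

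IgM-negative B cells were then compared between the transgenic thymus and fetal liver. Here 23 of 35 members were lower in tg B and 12 higher, with a median of -0.34, while all genes had a median of -0.20; with each array scaled to its median these were -0.04 and 0.09, with 18 members lower and 17 higher. None was called, against 0.149% of all genes (0.0179% higher, 0.131% lower), and 10 of 35 (4 higher, 6 lower) had an unadjusted p under 0.05, against 17.1% of all genes. Groups did not overlap downward for 8 members (Ifit1, Ifit2, Irf1, Irf7, Oasl1, Ifi35, Ifi44 and Irgm1), where 23.9% of all genes did so, and upward for 5 (Isg15, Oas1b, Igtp, Iigp1 and Zbp1), where 9.04% did so. The other probes of Irgm1 and Oas1b were also free of overlap, in the same direction. An Oas1b probe among them covers part of the same bases as the probe used, as described above. Those of Isg15, Zbp1 and Irf1 overlapped. On tg B 22 and 23 they lay at -3.05 and -2.22, at 2.26 and 1.40, and at -0.61 and -0.14. On fetal liver arrays 16, 17 and 18 they lay at -2.51, -2.32 and -2.26, at 2.07, 2.14 and 1.95, and at 0.52, 0.20 and -0.55. Irf7 lay at -1.43 and -2.93 on tg B 22 and 23, against -0.17, -1.07 and -0.12 on fetal liver arrays 16, 17 and 18. Both tg B values were below all 3 of fetal liver, with a difference of -1.72 ± 0.51 (adjusted p = 0.146). Ifit2 lay at -1.08 and -2.72 in tg B, against -0.80, -0.08 and 0.11 in fetal liver, a difference of -1.64 ± 0.55 (adjusted p = 0.173). For both genes tg B 23 was the lowest of the 24 arrays. Oas1b lay at 7.43 and 7.70 in tg B, against 6.89, 7.07 and 7.14 in fetal liver, a difference of 0.53 ± 0.19 (adjusted p = 0.187). Iigp1 lay at 5.04 and 5.46 in tg B, against 4.76, 4.89 and 4.76 in fetal liver, a difference of 0.45 ± 0.16 (adjusted p = 0.194), while its second probe differed by -1.28. All these arrays were on slide 4. Markers of cell type moved in the same comparison: the B cell marker Cd79a, part of the B cell receptor, averaged -3.22 ± 2.11 in tg B (n = 2) and 0.40 ± 1.15 in fetal liver (n = 3), a difference of -3.62 ± 0.84 (adjusted p = 0.0949). At the other end of that list, Ms4a1 differed by 0.60 ± 0.47. Of the 9 B cell markers 6 were lower and 3 higher, and 3 had a limma unadjusted p under 0.05. Of the 10 myeloid markers 7 were lower and 3 higher, and 4 had such a p. Other lists were mostly lower too: 6 of 8 T cell, 6 of 7 erythroid, 5 of 7 natural killer and 7 of 8 thymic epithelial markers. Of the plasmacytoid dendritic cell markers 5 of 8 were higher. The mean of the B cell markers was -1.62 to -1.11 on the tg B arrays, against -0.85 to -0.24 on the IgM-negative fetal liver arrays, and that of the myeloid markers was -0.63 to -0.19, against -0.07 to 0.30. The part of cell composition in the members' values was not tested.

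Several of these differences depended on the array tg B 23. Isg20 lay at 2.88 on tg B 23 and 0.49 on tg B 22, against 0.87, 0.34 and 0.55 in fetal liver. Slfn2 lay at 2.81 on tg B 23 and -2.20 on tg B 22, against -1.72, -1.27 and -1.24. On these probes tg B 23 stood far above every other array, and tg B 22 stood among or below the fetal liver arrays. Oasl2 also had its highest value on tg B 23, 0.78, with -7.67 on tg B 22 and -1.96, -4.26 and -4.72 in fetal liver. On the second probe of Isg20, tg B 23 lay at -0.30 and tg B 22 at -1.42, against -0.84, -1.27 and -0.40 in fetal liver, so that wt DP 2, at -0.27, was higher than tg B 23, and the groups differed by -0.022 (adjusted p = 0.981). Without tg B 23 the members' median was -0.08, Irf7 differed by -0.97 (adjusted p = 0.712), Ifit2 by -0.82 (adjusted p = 0.772) and Iigp1 by 0.24 (adjusted p = 0.769), while Oas1b differed by 0.40, against 0.53 with both arrays. Without tg B 22, which leaves tg B 23 alone and assumes that it varies like the other groups, 5781 genes (17.2%) were called, 8 of 35 members among them. These were Isg20, Slfn2 and Iigp1, higher, and Irf7, Ifit2, Oas2, Oas3 and Irgm1, lower, and 5 of the 8 (Isg20, Slfn2, Iigp1, Oas2 and Irgm1) then passed the F test, as did 8.85% of all genes. The lower median signal and the smaller share of spots above background on tg B 23 moved with these values, and their part in them was not tested.

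**Figure D5:**
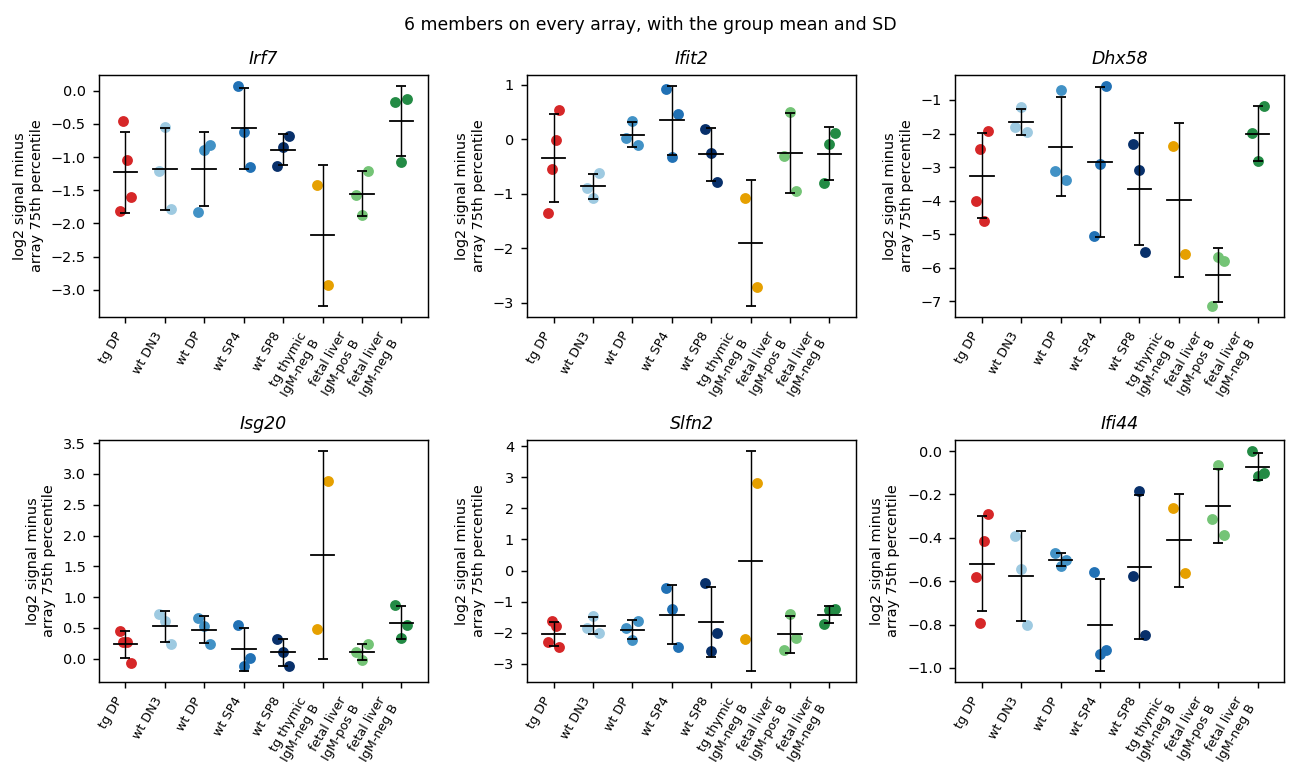
Log2 signal of 6 interferon response genes on every array (points) with the group mean and SD (bars), by group. Isg20 and Slfn2 were high on tg B 23 alone, Dhx58 was low on all 3 IgM-positive arrays, and Ifi44 had its highest mean in the IgM-negative B cells of fetal liver.

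The IgM-positive fetal liver B cells were set against the IgM-negative cells from which they mature. Of 35 members, 26 were lower in IgM-positive cells and 9 higher, with a median of -0.28 against -0.14 for all genes; with each array scaled to its median these were -0.12 and 0.01, with 16 members higher. None was called (0% of all genes were), and 2 of 35 had an unadjusted p under 0.05, against 7% of all genes. Dhx58 lay at -7.14, -5.68 and -5.80 on IgM-positive arrays 19, 20 and 21, against -2.0, -2.83 and -1.19 on IgM-negative arrays 16, 17 and 18. All 3 IgM-positive values were lower, with a difference of -4.20 ± 1.11 (unadjusted p = 0.00137, adjusted p = 0.411), and its probe was well above background on 1 of those 3 arrays. Leaving out any 1 array gave -4.61 to -3.74. Irf7 lay at -1.56, -1.88 and -1.21 in IgM-positive cells, against -0.17, -1.07 and -0.12 in IgM-negative cells, a difference of -1.09 ± 0.46 (adjusted p = 0.654). Isg20, Usp18 and Ifih1 were the other members whose groups did not overlap, all lower in IgM-positive cells, where 11.3% of all genes did so downward and 2.11% upward. The second probes of Isg20 and Ifih1 overlapped. For Isg20 it lay at -0.93, -0.91 and -1.09 in IgM-positive cells, against -0.84, -1.27 and -0.40 in IgM-negative cells. For Ifih1 it lay at -7.44, -3.21 and -8.03, against -2.17, -3.37 and -4.62. Ifih1 differed by -0.91 ± 0.45 and Usp18 by -0.59 ± 0.32. Stat2 differed by 1.01 ± 1.12, with 2 of 3 arrays well above background in each group, and by 0.37 without IgM-positive 20. Zbp1 differed by 0.17 ± 0.19, and by 0.049 without IgM-positive 19. The IgM-negative arrays were also those of the comparison with tg B, so Irf7, which was lower in both, rests on the same 3 values.

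Along the thymocyte stages of the heterozygous thymus, no member was called at any step. At the step to DP, where the T cell receptor beta chain has been selected, 20 of 35 were higher in DP than in DN3 and the median was 0.05, against 0.03 for all genes. On slide 2 alone, with 3 DP arrays and DN3 7, the members' median was -0.12, against -0.01 for all genes. With slide as a block it was -0.021, against -0.033 for all genes, with 16 of 35 higher. None was called (0% of all genes) and 0 of 35 had an unadjusted p under 0.05, against 2.06%. Ifit2 lay at 0.03, 0.33 and -0.11 on DP 3A, 2 and 3, against -0.90, -1.07 and -0.62 on DN3 7, 8 and 9. All 3 DP values were higher, by 0.95 ± 0.49 (unadjusted p = 0.0716, adjusted p = 1.0). Xaf1, a promoter of apoptosis, and Trim25 did not overlap upward either (6.34% of all genes did not), and Ifi35 downward (5.52%). Xaf1 differed by 0.51 ± 0.33, but by -0.67 on its second probe. The second probe of Trim25 lay at -0.50, -0.99 and -0.84 on DP 3A, 2 and 3. On DN3 7, 8 and 9 that probe lay at -0.51, -0.18 and -0.63, so its groups overlapped. Parp14, an ADP-ribosyltransferase, differed by -0.90 ± 0.79 and Ifi35 by -0.45 ± 0.30.

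At the step to SP4, 19 of 35 members were higher in SP4 than in DP, with a median of 0.04 against -0.07 for all genes. None was called (0% of all genes), and 1 of 35 had an unadjusted p under 0.05, against 6.44%. This was Ifi35, an interferon-induced protein with a leucine zipper, which lay at 1.75, 0.30 and 0.90 on SP4 10, 11 and 12, against 0.52, 0.01 and 0.38 in DP. The groups overlapped, SP4 10 was the highest array of all 24, and the difference was 0.68 ± 0.30 (adjusted p = 0.753), or 0.30 without SP4 10. Irf7 differed by 0.61 ± 0.46 and Irgm1 by -0.42 ± 0.23, with all 3 SP4 arrays below DP for Irgm1 and for Ifi44 (9.74% of all genes did not overlap downward), which differed by -0.30 ± 0.19. On the second probe of Irgm1 the groups overlapped, with a difference of 0.26. Oasl2 was the member that did not overlap upward (5.62% of all genes). At the step to SP8, 14 of 35 were higher, with a median of -0.06 against -0.02, and 0 of 35 had an unadjusted p under 0.05, against 2.15%. None was called (0% of all genes), and no member's groups were free of overlap, against 4.92% of all genes upward and 5.77% downward. Mx2, an antiviral GTPase like Mx1, differed there by 0.41 ± 0.29, Parp14 by 0.74 ± 0.79 (-0.04 without SP8 13), Stat2 by -1.78 ± 1.12, with 1 of 3 SP8 arrays well above background, and Trim25 by -0.28 ± 0.20. No slide held both SP4 and DP or both SP8 and DP, so there are no values within a slide, and a fit with slide as a block reaches these steps through groups that span slides. In that fit the members' median was 0.10 for SP4 against DP (21 of 35 higher), against 0.03 for all genes. For SP8 against DP it was 0.12 (21 of 35 higher), against 0.07 for all genes. The sign of the SP8 step turned for the members and for all genes, and that of the SP4 step for all genes.

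Between SP4 and SP8, 21 of 35 members were higher in SP4 (median 0.08, against -0.03 for all genes), none was called (0% of all genes), and 1 of 35 had an unadjusted p under 0.05, against 5.13%. This was Rsad2, which encodes the antiviral enzyme viperin. It lay at -3.34, -3.07 and -2.33 on SP4 10, 11 and 12, against -0.93, -2.82 and -1.74 on SP8 13, 14 and 15, and these ranges overlapped (-1.08 ± 0.51, adjusted p = 0.962). The 3 IFIT genes and the 4 transcription factors were all higher in SP4 under every scaling tried, with medians of 0.63 and 0.52, and none of the 7 passed. Every scaling used the same arrays, and the groups overlapped for all 7. Irf9 lay at -3.38, -4.56 and -1.02 on SP4 10, 11 and 12, against -3.17, -1.93 and -5.48 on SP8 13, 14 and 15. Stat2 lay at -7.35, -3.06 and -1.94, against -3.88, -6.43 and -5.82. For both, SP4 12 was the highest of these arrays. Irf9, Stat2 and Ifit1 were well above background on 20, 16 and 17 of 24 arrays. Of the immunity-related and guanylate-binding GTPases 4 of 6 were lower (median -0.29), as was Mx2, also under every scaling. The other effectors had 3 of 8 higher (median -0.07), the oligoadenylate synthetases 3 of 6, the sensors 4 of 5 and the pair Isg15 and Usp18 both. Ifi35 differed by 0.61 ± 0.30, Ifi44 by -0.27 ± 0.19 and Ifit1 by 1.71 ± 1.03, the last with 1 of 3 SP8 arrays well above background. Single arrays moved all of these: Ifi35 differed by 0.23 without SP4 10, Ifi44 by -0.092 without SP8 14, Ifit1 by 0.75 without SP8 15 and Rsad2 by -0.63 without SP8 13. Groups did not overlap for Usp18 upward (3.97% of all genes) and for Mx2 and Irgm1 downward (6.67%). On the second probe of Irgm1 they overlapped, with -2.09, -2.03 and -2.38 in SP4 against -2.40, -1.54 and -6.19 in SP8.

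Between the lineages, the 12 wt thymocyte arrays were set against the 6 fetal liver B cell arrays. Of 35 members, 23 were higher in thymocytes, with a median of 0.07 against 0.05 for all genes. With each array scaled to its median, 16 were higher and 19 lower (median -0.016, against -0.031 for all genes). With slide as a block 17 were higher and 18 lower (median -0.072, against -0.021 for all genes). Neither the majority nor the sign held, and the median of all genes changed sign as well. None was called, against 0.202% of all genes (0.0804% higher, 0.122% lower), and 8 of 35 (5 higher, 3 lower) had an unadjusted p under 0.05, against 13.3%. Ifi44, an interferon-induced protein of the cytoplasm, came closest. It had a lowest value of -0.93, a median of -0.55 and a highest of -0.18 in thymocytes, against -0.39, -0.11 and 0.00 in fetal liver B cells. The ranges overlapped, and the difference was -0.44 ± 0.11 (unadjusted p = 0.00108, adjusted p = 0.101). Oas2 had 0.33, 0.70 and 1.01 in thymocytes as its lowest, median and highest value, against -0.54, 0.42 and 0.59 in fetal liver B cells, a difference of 0.48 ± 0.17 (adjusted p = 0.226). Oas1b differed by 0.31 ± 0.10 (adjusted p = 0.195) and Iigp1 by -0.25 ± 0.09 (adjusted p = 0.222), and on its second probe Oas1b differed by -0.10. Both lineages met on slide 1 with 1 array each, where Ifi44 differed by -0.62, Oas2 by 1.09, Oas1b by 0.11 and Iigp1 by 0.02. No member's groups were free of overlap, against 0.137% of all genes upward and 0.307% downward.

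Members with and without the ISRE letters were set side by side. In tg B against IgM-negative B cells, the 14 members with the letters had a median difference of -0.55 (4 higher, 10 lower), and the 13 with a promoter but without them -0.34 (4 higher, 9 lower). In IgM-positive against IgM-negative cells these medians were -0.54 and -0.18. Over all genes the medians of these comparisons were -0.20 and -0.14. In SP4 against SP8 the medians with and without the letters were -0.18 (5 of 14 higher) and 0.28 (11 of 13 higher), and in tg DP against wt DP -0.04 and -0.10. In SP4 against DP they were -0.28 and 0.27, and in SP8 against DP -0.15 and -0.06. In DP against DN3 they were 0.15 and 0.08, and in thymocytes against fetal liver B cells 0.27 and 0.06. These are descriptions, with no test, and in no comparison was a member of either kind called.

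The other genes of the pathway were given by lists fixed by role. None of the measured ligands (11 of 12), receptor chains (5 of 6 tested), signal transducers (5), other interferon regulatory factors (6), inducers such as Toll-like receptors (7 of 10), inhibitors (6) or further interferon-stimulated genes (32 of 36) was called in any of the 8 comparisons. Receptor chains were dim: Ifnar1 had group means of -3.76 to -2.41 and Ifnar2 of -7.43 to -2.80, whose probe was well above background on neither tg B array. In tg B against IgM-negative B cells, the receptor chains measured on all 24 arrays differed by -0.83 ± 0.77 (Ifnar1, adjusted p = 0.583) and -0.73 ± 0.27 (Ifngr1, adjusted p = 0.204). Phf11 differed in that comparison by -2.48 ± 0.49 (-4.17 ± 0.59 in tg B, n = 2, and -1.69 ± 0.52 in fetal liver, n = 3), with an adjusted p of 0.0533. Gbp7, a guanylate-binding protein, differed by -2.48 ± 0.52 in IgM-positive against IgM-negative cells (adjusted p = 0.297). Ikbke, a kinase that activates interferon regulatory factors, differed by 1.27 ± 0.35 in thymocytes against fetal liver B cells (adjusted p = 0.115).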

How the data were processed

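The deposited files hold spot intensities of single-colour arrays (design 028005), extracted with Feature Extraction 10.7.3.1 per the file headers. Per the labels' protocols, messenger RNA of sorted cells was made into tagged cDNA, amplified by PCR and labelled with Cy3, so differences include the error of amplification. The authors' processed intensity per spot (background-subtracted per the file headers) was turned into log2 here, the 75th percentile of each array was subtracted, control spots and spots marked as non-uniform were left out and spots of a probe were averaged. The deposited series matrix, on a log2 scale, served as an alternative. A gene entered the tests if a probe of it exceeded background, by the scanner's flag, throughout at least 1 group (95.2% of probes did). Groups came from the sample labels, and limma 3.58.1 in R 4.3.3 (lmFit, eBayes) was fitted to all 24 arrays, with Benjamini-Hochberg adjustment over 33591 genes and a threshold of 0.05. The fit was tested on simulated data. Members and lists were chosen with earlier results of these data known. In each comparison the text names every member past the threshold and the 2 with the highest and the 2 with the lowest moderated t, and of the other lists the genes past the threshold or at the ends of the moderated t. Some members were added after their values were seen. These were Isg20, Slfn2, Oas2, Oas3, Oasl2 and Irgm1 in tg B, and Irf9 and Stat2 in SP4 against SP8. The others were Ifih1 and Usp18 in IgM-positive cells, the members named for groups without overlap, and the values of some second probes. The alternatives were normexp (offset 50), quantile and median scaling, the series matrix, other filters and probe rules, slide as a block, the groups of a comparison alone, arrays sharing a title number averaged, and leaving out arrays. Promoter letters were searched with Python 3.11.15. Values of 1 further gene of the wider pathway are not reported here.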

Additional observations from a re-analysis of the deposited data

How the results depend on the processing

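No paired analysis was possible because the groups share no replicate numbers. No member was called under any alternative, with the exception of the fit without tg B 22, where 8 of 35 were called in tg B against IgM-negative B cells, as were 17.2% of all genes, and 5 in the F test over the 8 groups, as were 8.85%. Counts of called genes among all genes were less stable, and the causes were not tested. For tg B against IgM-negative B cells, 50 genes were called by limma, against 8 with normexp, 8 with quantile scaling, 14 with median scaling, 8 with the series matrix, 12 with no filter, 32 with probes well above background on all 24 arrays, 22 with the mean over probes, 0 with these groups alone, 10 with arrays sharing a title number averaged, 7 without tg DP 4, tg B 23 and IgM-positive 21, and 12 with the second brightest probe, an alternative chosen after seeing the data. For SP4 against DP the count was 0, against 12 with normexp, 6 with quantile scaling, 4 with median scaling, 6 with the series matrix, 7 on probes above background everywhere and 27 without those 3 arrays. For thymocytes against fetal liver B cells it was 68, against 156, 140 and 141 with normexp, quantile scaling and the series matrix, 140 on probes above background everywhere, 5 with the mean over probes, 32 with slide as a block, 206 with these groups alone, 5 with averaged arrays, 201 without the 3 arrays and 5 with the second probe. For IgM-positive against IgM-negative cells it was 0, against 7 with slide as a block, 2 with these groups alone, 2 with averaged arrays and 1 without the 3 arrays; for SP4 against SP8 it was 0, and 1 without them. The F test called 63 genes, against 10 with slide as a block, 9 with averaged arrays, 20 without the 3 arrays and 37 with the second probe.

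The members' median in tg B was -0.34, against -0.043 with median scaling and -0.083 without the 3 arrays, and in IgM-positive cells -0.28, against -0.55 with the second probe. Signs turned for Iigp1 in tg B (-0.42 with the mean over probes, -1.28 with the second probe), Xaf1 in DP against DN3 (-0.080 and -0.67), Irgm1 in SP4 against DP (0.26 with the second probe), Oas1b between the lineages (-0.10 with the second probe) and Iigp1 between the lineages (0.0068 with slide as a block). Leaving out each array in turn gave -0.51 to 1.62 for Igtp in tg DP and -0.039 to 1.31 for Parp14 in SP8 against DP. Without changing sign, it moved by over 1.5 times Zbp1 (0.15 without tg DP 4) and Usp18 (-0.55 without tg DP 6A, -0.024 without wt DP 3) in tg DP, Parp14 in DP against DN3 (-0.58 without DP 2), Irf7 in SP4 against DP (0.29 without DP 3A), and Mx2 (0.21 without DP 3) and Trim25 (-0.44 without SP8 13, -0.059 without SP8 15) in SP8 against DP. Leaving out each array in turn also gave 6 to 5781 called genes and medians of -0.52 to -0.083 in tg B (highest count without tg B 22), 0 to 8 genes in IgM-positive cells (8 without IgM-positive 20), 0 to 1 in SP4 against DP, 0 to 2 in SP4 against SP8, 0 to 335 between the lineages (0 without IgM-negative 16 or 18 or IgM-positive 21, 335 without IgM-positive 19) and 7 to 2973 in the F test. The number of arrays and the dim signals of Mx1, Gbp3, Stat2 and Ifit1 limit the precision.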
